A study of Homo sapiens with 4 samples.

Results

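The cytosolic ribosomal protein genes were taken as the autosomal protein-coding genes of the GENCODE annotation of hg19 whose symbol is RPL or RPS followed by a number and, in some, a letter, together with RPLP0, RPLP1, RPLP2 and RPSA. This rule found 77 genes of the 19222 autosomal protein-coding genes. They comprise 43 proteins of the large subunit, 30 of the small subunit, and 4 paralogs whose symbol ends in L (RPL3L, RPL10L, RPL39L and RPS27L). The X-linked members of the ribosome lie outside the rule. The genes were examined in the H3K27ac ChIP-seq peak lists of 4 human cancer cell lines, which the study made to ask whether candidate regulatory mutations fall in active regions of the same line. COLO-205 is a colon cancer line grown in RPMI, DU-145 a prostate cancer line grown in Eagle minimal essential medium, OVCAR-3 an ovarian cancer line grown in RPMI 1640 and SKOV-3 an ovarian cancer line grown in McCoy's 5a. All media held FBS, no line was treated, and the chromatin of every line was precipitated with the same antibody against histone H3 acetylated at lysine 27. Each tissue is represented by established lines only, with 1 library per line, so no replicate error exists and lines cannot be compared by a test. The intervals of fold enrichment given below cover counting error only. Those of a median describe the spread over genes within 1 library.

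H3K27ac is an acetylation of histone H3 that marks the nucleosomes next to active promoters and enhancers, while the start site of an active gene itself is usually depleted of nucleosomes. Ribosomal protein genes are among the most strongly and evenly transcribed genes of dividing cells, because the proteins are needed in matched amounts to build the small and the large subunit. Their transcripts begin with a short pyrimidine stretch, the 5' TOP motif, through which the mTORC1 and LARP1 pathway controls their translation, and many of them carry small nucleolar RNAs in their introns. Inherited loss of 1 copy of several of these genes causes Diamond-Blackfan anaemia, and some are lost or mutated in cancers.

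The promoters are shown first because the mark is read around their start sites. Each sequence is the strand of the gene from 100 bases before to 20 bases after the reference start, read from GRCh37 (hg19), and the capitals mark the 5' TOP run, that is 5 or more pyrimidines from a C within 5 bases of the start. The first set holds genes to which the results below return. It has RPS19, RPL11 and RPL5, which are Diamond-Blackfan anaemia genes, the stalk protein RPLP0, the laminin receptor homologue RPSA, the S6 kinase substrate RPS6, and RPS27 and RPS16.
RPS19, chr19:42364225-42364344, plus strand: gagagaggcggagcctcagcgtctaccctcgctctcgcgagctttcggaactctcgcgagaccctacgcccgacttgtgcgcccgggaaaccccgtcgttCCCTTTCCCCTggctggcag
RPL11, chr1:24018196-24018315, plus strand: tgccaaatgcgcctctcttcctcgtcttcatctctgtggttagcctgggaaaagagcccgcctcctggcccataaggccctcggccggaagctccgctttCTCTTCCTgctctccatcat
RPL5, chr1:93297497-93297616, plus strand: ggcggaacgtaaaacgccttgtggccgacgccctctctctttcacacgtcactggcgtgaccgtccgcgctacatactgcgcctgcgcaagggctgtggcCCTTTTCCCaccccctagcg
RPLP0, chr12:120638895-120639014, minus strand: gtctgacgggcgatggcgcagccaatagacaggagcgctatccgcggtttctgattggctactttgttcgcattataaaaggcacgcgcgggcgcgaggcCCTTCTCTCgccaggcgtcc
RPSA, chr3:39448111-39448230, plus strand: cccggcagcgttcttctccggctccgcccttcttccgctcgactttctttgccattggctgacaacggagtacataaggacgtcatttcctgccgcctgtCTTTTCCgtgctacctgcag
RPS6, chr9:19380215-19380334, minus strand: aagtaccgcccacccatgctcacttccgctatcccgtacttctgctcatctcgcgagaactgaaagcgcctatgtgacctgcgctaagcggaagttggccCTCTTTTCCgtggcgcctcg
RPS27, chr1:153963138-153963257, plus strand: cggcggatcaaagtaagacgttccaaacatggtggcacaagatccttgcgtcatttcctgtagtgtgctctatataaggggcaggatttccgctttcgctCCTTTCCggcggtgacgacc
RPS16, chr19:39926570-39926689, minus strand: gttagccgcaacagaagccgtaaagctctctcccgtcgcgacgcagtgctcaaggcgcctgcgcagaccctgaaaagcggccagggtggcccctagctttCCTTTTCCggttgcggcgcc
The second set holds RPS27L, RPL39L and RPL10L, shown because none of the 4 paralogs with a final L has the run.
RPS27L, chr15:63449657-63449776, minus strand: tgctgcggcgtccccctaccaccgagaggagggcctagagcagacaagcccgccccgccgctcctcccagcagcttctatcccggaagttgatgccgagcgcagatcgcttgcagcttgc
RPL39L, chr3:186857265-186857384, minus strand: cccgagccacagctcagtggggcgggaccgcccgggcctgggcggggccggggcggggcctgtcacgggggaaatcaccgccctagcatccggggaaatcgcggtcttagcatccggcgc
RPL10L, chr14:47120965-47121084, minus strand: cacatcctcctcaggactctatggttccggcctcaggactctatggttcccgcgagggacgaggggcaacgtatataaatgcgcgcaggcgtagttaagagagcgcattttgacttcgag
The run was present in 63 of the 77 genes (81.8%) and in 21.7% of all autosomal protein-coding genes. It began at the first transcribed base in 55 genes, and its length ranged from 5 bases to 16 bases, the longest being at RPL7A. Besides the 4 paralogs, the genes without it included RPL9, RPL15, RPL17, RPL23, RPL23A, RPL27, RPS15 and RPS26, for the start annotated as the reference. The first transcribed base was C in 59 genes (76.6%), against 10.7% of all genes. TATAAA, searched on the gene's strand within 50 bases upstream, was found in RPLP0, RPS2, RPS28 and RPL10L (5.19%, all genes 4.18%). In the window from 250 bases before to 50 bases after the start, searched on both strands, the ETS core CCGGAA was present in 43 genes (55.8%, all genes 22.8%) and the YY1 motif AAGATGG in 14 (18.2%, all genes 6.34%). The SP1/KLF box GGGCGG was present in 46 (59.7%, all genes 61.3%). These are matches of letters and not measured binding. Matches can share bases. The ETS core shared at least 1 base with the run in 9 genes, RPS27 and RPS16 among them, and with the SP1/KLF box at RPL8. The SP1/KLF box met the run at RPS3A and the YY1 motif met it at RPL6. Mitochondrial ribosomal protein genes had the ETS core at a similar share (60.3%) and the run at the share of all genes (20.5%). Median GC content of the same window was 60.0% in the 77 genes and 63.7% in all genes.

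**Figure D1:**
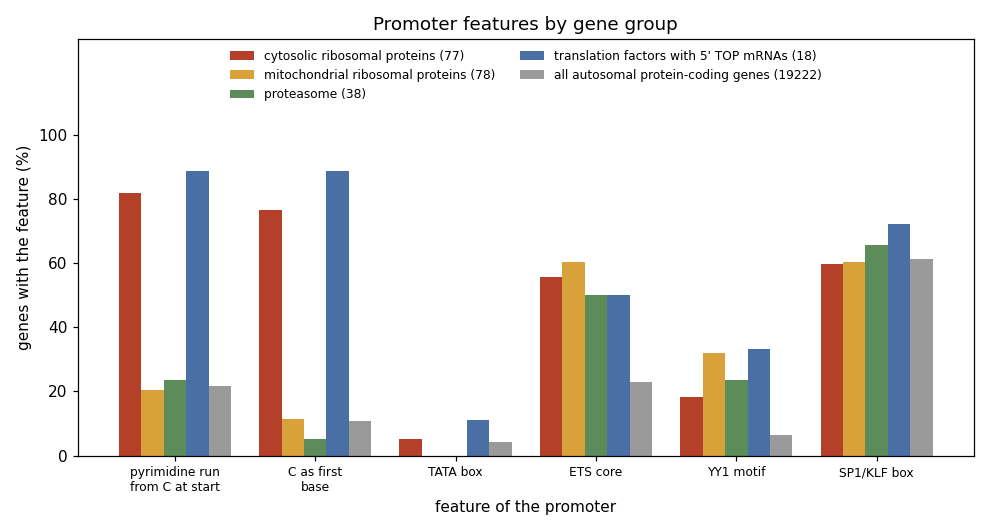
Share of genes (%, vertical axis) with each promoter feature (horizontal axis) in the 77 cytosolic ribosomal protein genes, 3 comparison groups and all 19222 autosomal protein-coding genes. The run of pyrimidines stands at 81.8% in the ribosomal protein genes and at 88.9% in the translation factors with 5' TOP mRNAs, and between 20.5% and 23.7% in the other groups.

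The peak lists differ in size, and this bears on every count below. They hold 85576 peaks for COLO-205, 75468 for DU-145, 76093 for OVCAR-3 and 14001 for SKOV-3, from between 22400000 ChIP tags (SKOV-3) and 36000000 (DU-145), as recovered from the peak statistics. Of the ovary markers, 6 of 6 had a promoter peak in OVCAR-3 and 2 of 6 in SKOV-3. Of the prostate markers, 2 of 6 had one in DU-145, with KLK3 among those without, against 3 of 6 in COLO-205, where KLK3 had one. Of the colon markers, 3 of 6 had one in COLO-205, where 4 of 6 ovary markers also did, and DU-145 had 3 of 6 ovary markers. Thus in COLO-205 and DU-145 the markers of the labelled tissue were not those most often marked. Of 4 epithelial markers, all had a promoter peak outside SKOV-3, where KRT8 and KRT18 had one and EPCAM and CDH1 had none. None of 4 leukocyte markers had one in any line. Of 3 fibroblast and endothelium markers, PDGFRB had one in COLO-205 and COL3A1 in SKOV-3.

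A gene was counted as marked when a deposited peak overlapped, by at least 1 bp, the region 1 kb either side of one of its annotated transcript starts. At the deposited threshold most ribosomal protein genes were marked in each line, and fewest in SKOV-3, whose list is the shortest. In COLO-205, 62 of 77 genes were marked (80.5%), against 52.9% of all autosomal protein-coding genes. In DU-145, 72 were marked (93.5%, all genes 62%), and in OVCAR-3 74 (96.1%, all genes 61.5%). In SKOV-3, 50 were marked (64.9%, all genes 32.4%). The share of marked ribosomal protein genes was thus above that of all genes in each library. In all 4 lines 46 genes were marked (59.7%, all genes 26%), and 3 genes were marked in no line (3.9%, all genes 23.4%). The list was chosen with results of these data known, so no test is attached to these shares.
Of the large subunit genes, 35, 42, 43 and 24 of 43 were marked in COLO-205, DU-145 and the ovarian lines OVCAR-3 and SKOV-3. Of the small subunit genes, 25, 28, 29 and 24 of 30 were marked in the same order. The subunits were therefore marked at like shares in the first 3 lines, and at 55.8% (large) and 80.0% (small) in SKOV-3, a difference between 2 gene lists within 1 library that was not tested. Other housekeeping groups were marked at shares close to those of the ribosomal protein genes in DU-145 and OVCAR-3. In SKOV-3 the groups lay apart, with 35.9% of 78 mitochondrial ribosomal protein genes, 86.8% of 38 proteasome genes and 72.2% of 18 translation factor and fusion genes with 5' TOP mRNAs.
When each library was cut to the 14001 peaks with the highest −log10 q, the number in SKOV-3, the marked genes numbered 39 for COLO-205 (all genes 22.7%), 47 for DU-145 (all genes 39.6%) and 71 for OVCAR-3 (all genes 39%). The count of OVCAR-3 hardly moved while those of COLO-205 and DU-145 fell below the 50 of SKOV-3, and 27 genes remained marked in all 4 lines (35.1%, all genes 13%). With a −log10 q of at least 10, 29 genes were marked in SKOV-3 (37.7%, all genes 22.9%), which is no longer most of them.

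**Figure D2:**
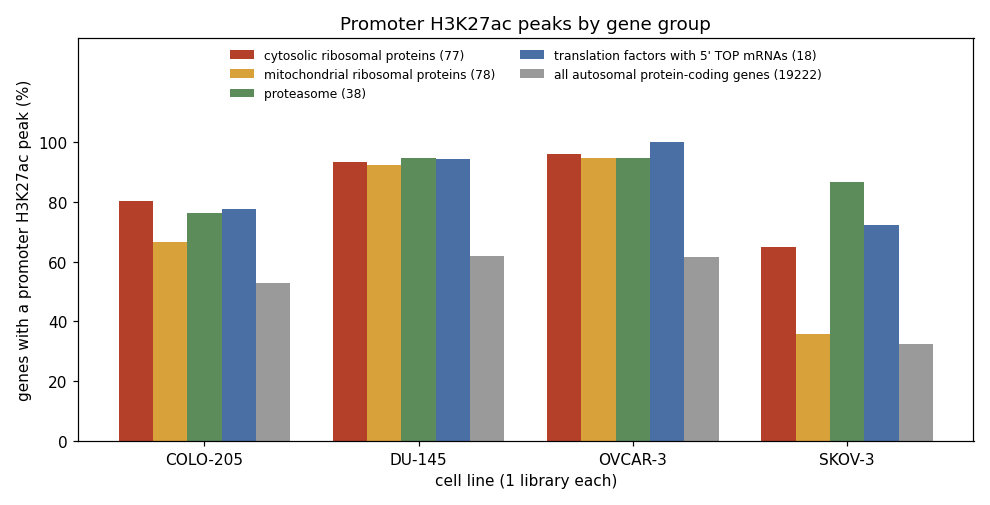
Share of genes (%, vertical axis) with a promoter H3K27ac peak in each of the 4 lines (horizontal axis, 1 library each, no error bars possible). In SKOV-3 the bars run from 32.4% for all genes and 35.9% for mitochondrial ribosomal proteins to 64.9% for cytosolic ribosomal proteins and 86.8% for the proteasome.

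The genes without a mark fell into few patterns. The genes unmarked in every line included RPL3L and RPL10L. RPL18 was marked in OVCAR-3 only, with a peak of 522 bp and a fold enrichment of 5.19 over the local background (exact Poisson 95% interval 4.14 to 6.44). RPL23, RPL24, RPL28, RPL29, RPL34, RPL35A and RPS12 were among those marked in DU-145 and OVCAR-3 but in neither COLO-205 nor SKOV-3. RPS3A lacked a peak in DU-145 alone, where the nearest peak was 84409 bp away. RPL13A, RPS18 and RPS25 lacked one in COLO-205 alone.
SKOV-3 alone lacked the mark at 15 genes, among them RPL5, RPL10A, RPL14, RPL15, RPL21, RPL26, RPL27, RPL37, RPL37A, RPL41, RPLP0, RPS7, RPS10 and RPSA. Of the 61 genes marked in the other 3 lines, 46 were also marked in SKOV-3 (75.4%), against 65.8% of the 7608 genes with that pattern. The 27 genes unmarked in SKOV-3 had a lower median fold enrichment in each of the other lines. In OVCAR-3 their median fold enrichment was 8.54 (n = 24), against 11.4 for the genes marked in SKOV-3 (n = 50). It was 3.95 (n = 23) against 4.66 (n = 49) in DU-145, and 3.72 (n = 15) against 4.63 (n = 47) in COLO-205. For unmarked genes the distance to the nearest peak ranged from 1079 bp to 58188 bp for COLO-205, from 2038 bp to 503706 bp for DU-145, from 1262 bp to 202572 bp for OVCAR-3 and from 2285 bp to 2945418 bp for SKOV-3. The smallest values were at RPL28 (COLO-205), RPL3L (DU-145 and OVCAR-3) and RPLP0 (SKOV-3). A peak within 2 kb of a start was found for 2 of 15 unmarked genes in COLO-205, 1 of 3 in OVCAR-3, and none of 5 in DU-145 or of 27 in SKOV-3, so few of the missing marks lay just beyond the 1 kb limit.

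Several genes of Diamond-Blackfan anaemia and cancer were marked in all lines. RPS19, the gene first tied to the anaemia, had peaks of 496 bp for COLO-205, 1064 bp for DU-145, 1313 bp for OVCAR-3 and 345 bp for SKOV-3. Its fold enrichment was 4.98 (3.97 to 6.17), 4.38 (3.56 to 5.34), 9.41 (8.01 to 11.0) and 4.76 (3.59 to 6.20) in the same order. Fold enrichment is not scaled between libraries, and among the marked genes of each library these values stood at the percentiles 64.7, 41.9, 67.0 and 37.6.
RPL11, which together with RPL5 restrains the p53 inhibitor MDM2, had a fold enrichment of 6.67 for COLO-205 (5.15 to 8.5), 2.62 for DU-145 (1.88 to 3.58), 13.2 for OVCAR-3 (10.9 to 16) and 5.34 for SKOV-3 (3.85 to 7.23). Its value in DU-145 stood at the 1.86th percentile of marked genes in that library. RPL5, its partner in the ribosomal particle of the 5S RNA, had peaks of 246 bp, 564 bp and 762 bp in COLO-205, DU-145 and OVCAR-3, and no peak within 505443 bp in SKOV-3.
RPS14, the gene of the chromosome 5q deletion in myelodysplasia, was marked in all 4 lines with widths of 263 bp, 1132 bp, 1098 bp and 261 bp. RPL22, a target of truncating mutations in tumours with microsatellite instability, had a fold enrichment of 20.1 for OVCAR-3 (17.7 to 22.8), at the 97.2nd percentile of that library, and of 6.90 for COLO-205, 4.89 for DU-145 and 6.49 for SKOV-3, at the percentiles 91.0, 55.3 and 73.8. RPS24 and RPS26 were also marked in all lines, with OVCAR-3 fold enrichments of 14.4 and 9.58 and SKOV-3 values of 5.07 and 3.98. RPS7, RPS10 and RPL15 were marked in all lines but SKOV-3, and RPL35A in DU-145 and OVCAR-3. Thus of the genes of this group described here, 6 were marked in all 4 lines, 4 in all but SKOV-3 and 1 in 2 lines. The shares marked in all 4 lines were 59.7% over the 77 ribosomal protein genes and 26% over all autosomal protein-coding genes. No trait of the disease genes is read from these counts.

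The stalk of the large subunit recruits translation factors and is formed by RPLP0 with RPLP1 and RPLP2. RPLP0 had peaks of 274 bp for COLO-205, 972 bp for DU-145 and 473 bp for OVCAR-3, and in SKOV-3 its nearest peak was 2285 bp away. RPLP1 was marked in all lines, but its SKOV-3 fold enrichment of 3.20 (2.27 to 4.40) was at the 2.59th percentile of that library. RPLP2 had wide peaks for its library in each line, of 704 bp, 1411 bp, 2351 bp and 748 bp, and its width percentile was between 81.0 and 96.6. The start of RPLP2 lies 214 bp from that of PIDD1, so peaks near one start are also near the other.
RPSA had the narrowest peak of any ribosomal protein gene in COLO-205 (214 bp, the smallest width in that list), no peak in SKOV-3, and a fold enrichment of 15.5 in OVCAR-3 (13 to 18.3). RPS6, the substrate of the S6 kinases, was marked in all lines, with fold enrichments of 5.46, 4.67, 12.8 and 3.59 in COLO-205, DU-145 and the ovarian lines OVCAR-3 and SKOV-3. RPS27A, which is made as a fusion with ubiquitin, had a narrow strongest peak in every line, between 240 bp (COLO-205) and 415 bp (DU-145). In DU-145 and OVCAR-3 this peak lay upstream of the reference start, with its summit at -617 bp and -632 bp. In OVCAR-3 another peak covered that start. The starts of RPS27A and CLHC1 are 125 bp apart.

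**Figure D3:**
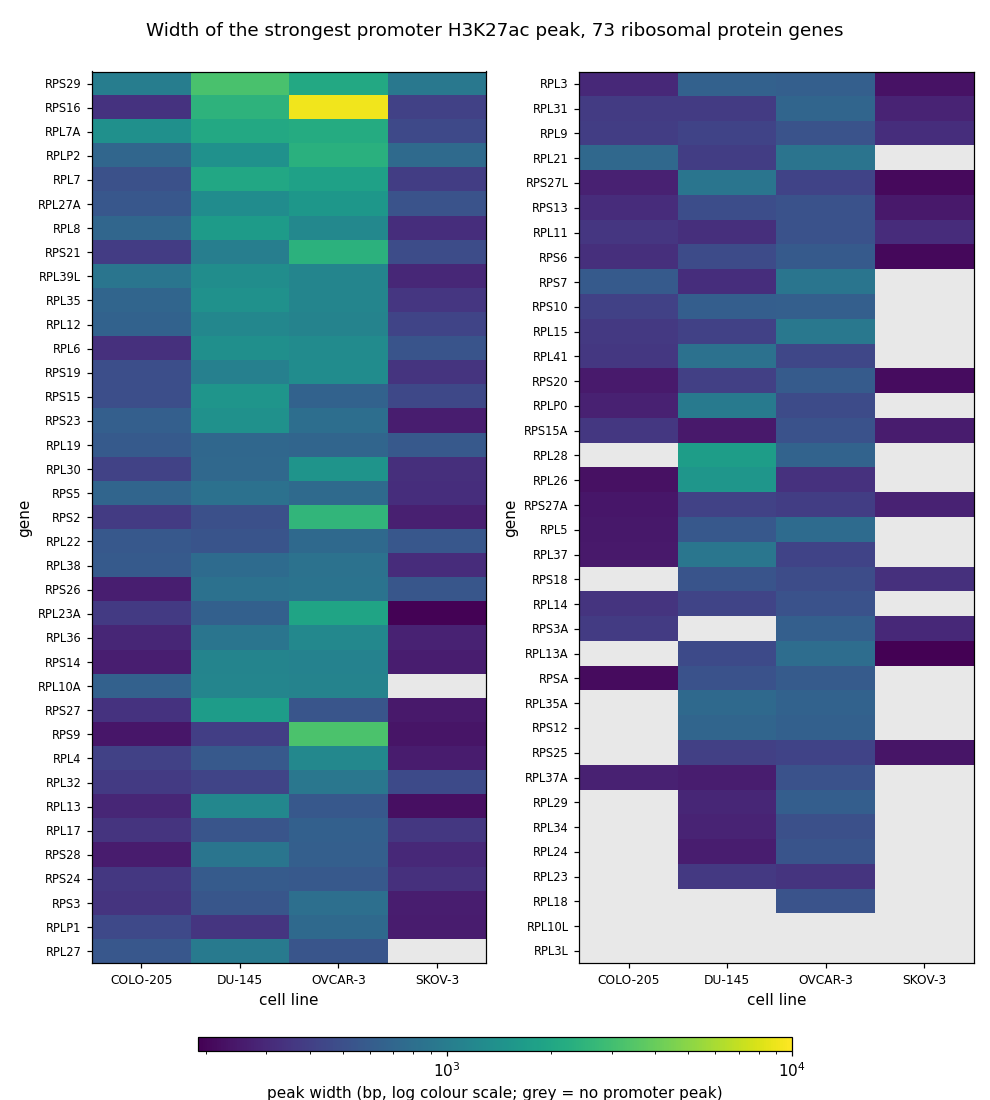
Width in bp (log colour scale) of the strongest promoter H3K27ac peak of the ribosomal protein genes reported here (rows) in the 4 lines (columns), with grey for no promoter peak and rows in order of mean log width. The widest cell is RPS16 in OVCAR-3 (9245 bp), and the rows that are grey throughout are RPL10L and RPL3L.

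The position of the peaks around the reference start was compared over genes with a peak within 1 kb of that start, which are 62, 72, 74 and 49 ribosomal protein genes in COLO-205, DU-145 and the ovarian lines OVCAR-3 and SKOV-3. Outside OVCAR-3, the share of ribosomal protein genes whose start was covered by a peak was below that of all marked genes, and in OVCAR-3 it was above. A peak covered the start of 7 genes for COLO-205 (11.3%, all genes 27.9%), 22 for DU-145 (30.6%, all genes 59.8%), 54 for OVCAR-3 (73.0%, all genes 57.2%) and 3 for SKOV-3 (6.12%, all genes 24%). The start lay uncovered between 2 peaks in 20 genes for COLO-205 (32.3%, all genes 16.1%), 30 for DU-145 (41.7%, all genes 17.4%), 10 for OVCAR-3 (13.5%, all genes 16.1%) and 8 for SKOV-3 (16.3%, all genes 14.7%). In COLO-205 this share was 35.7% for translation factor and fusion genes, 17.6% for mitochondrial ribosomal protein genes and 7.14% for proteasome genes. In DU-145 these groups had 29.4%, 19.4% and 11.1%. Their covered shares in SKOV-3 were 8.33%, 25.9% and 25% in the same order.
Peak coverage dipped just upstream of the start and was highest downstream of it in all 4 libraries. In DU-145 the share of ribosomal protein genes with a peak was 68.1% at -460 bp, 18.1% at -80 bp and 90.3% at 180 bp, while the curve of all genes turned at 57.7%, 41.2% and 88.4%. In COLO-205 the dip was to 8.06% at -30 bp (all genes 19.4% at -80 bp), and in SKOV-3 it was 4.08% at -50 bp (all genes 15.9% at -60 bp). In OVCAR-3 it was 29.7% at -110 bp (all genes 36.3% at -90 bp), and a peak covered all 74 genes at 60 bp.
Whether a dip splits a peak depends on how close neighbouring peaks are joined. With peaks less than 350 bp apart merged, the covered starts rose to 19 for COLO-205 (30.6%, all genes 35.8%), 44 for DU-145 (61.1%, all genes 72%), 63 for OVCAR-3 (85.1%, all genes 69%) and 9 for SKOV-3 (18.4%, all genes 32.8%), so the order of the covered starts against all genes held in each line. The starts between 2 peaks fell to 8 for COLO-205 (12.9%, all genes 8.24%), 8 for DU-145 (11.1%, all genes 5.26%), 1 for OVCAR-3 (1.35%, all genes 4.3%) and 2 for SKOV-3 (4.08%, all genes 5.96%), where the order turned. With 14001 peaks in every library they were 6 for COLO-205, 7 for DU-145 and 5 for OVCAR-3, and in OVCAR-3 the share (7.04%) was then above that of all genes (4.7%). With that number of peaks the covered share in OVCAR-3 was 71.8% against 72.5%, so its excess over all genes was not seen. In OVCAR-3 the covered share was also high in the groups most like the ribosomal protein genes, at 64.9% for mitochondrial ribosomal protein, 74.3% for proteasome and 77.8% for translation factor and fusion genes. With equal peak numbers, the share in COLO-205 and DU-145 stayed below that of all genes (15.4% against 37.7%, and 37.8% against 70.2%).

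**Figure D4:**
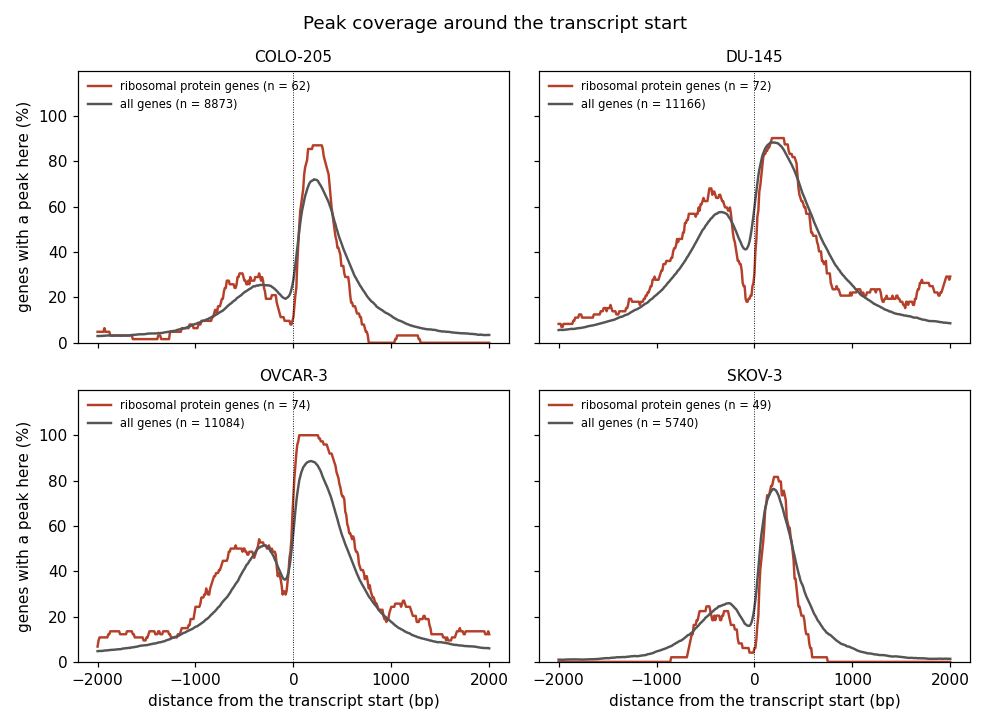
Share of genes (%, vertical axis) with an H3K27ac peak at each distance from the reference start (bp, negative upstream) in the 4 lines, for ribosomal protein genes (red) and all autosomal protein-coding genes (grey) with a peak within 1 kb of the start. The red curve dips to 8.06% for COLO-205, 18.1% for DU-145, 29.7% for OVCAR-3 and 4.08% for SKOV-3 just upstream of the start, each below the dip of the grey curve.

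The summit, the position of highest signal in the strongest peak, was usually downstream of the start, and DU-145 was the exception. It was downstream in 48 of 62 genes for COLO-205 (77.4%, all genes 72.5%), 61 of 74 for OVCAR-3 (82.4%, all genes 68.7%) and 38 of 49 for SKOV-3 (77.6%, all genes 72.8%). In DU-145 it was downstream in 35 of 72 (48.6%, all genes 67.4%). The median distance of the summit was 192 bp (COLO-205), 188 bp (OVCAR-3) and 165 bp (SKOV-3), and -104 bp in DU-145 (95% order-statistic interval over genes, -317 bp to 158 bp). Over all marked genes it was 188 bp, 159 bp, 148 bp and 158 bp in COLO-205, DU-145 and the ovarian lines OVCAR-3 and SKOV-3.
Between DU-145 and OVCAR-3, summits differed mostly in 1 direction. Of 72 ribosomal protein genes, the summit was upstream in DU-145 and downstream in OVCAR-3 in 25 (34.7%), and the reverse held in 1 (1.39%). Of 9644 genes marked in both lines, these shares were 10.2% and 9.22%. At RPS6 the summit was at -447 bp in DU-145 and at 289 bp, 239 bp and 240 bp in COLO-205, OVCAR-3 and SKOV-3. RPL22 gave -549 bp in DU-145 and 210 bp, 194 bp and 115 bp in the other lines. RPS13, a small subunit protein, gave -554 bp in DU-145 and 198 bp, 176 bp and 167 bp in the other lines. At these 3 genes DU-145 alone had its strongest peak upstream. RPS19 did not share this shift, with 146 bp, 186 bp, 144 bp and 158 bp in COLO-205, DU-145 and the ovarian lines OVCAR-3 and SKOV-3.
Another protein-coding start lay within 1 kb of 19 of the 77 genes (24.7%), against 19.1% of all genes. This counts any gene with another symbol, such as RPS10-NUDT3, 2 bp from RPS10, and RPL17-C18orf32, 14 bp from RPL17. Such a start need not be a separate promoter. Among the 54 genes marked in DU-145 without another protein-coding start within 1 kb, the start was covered in 17 (31.5%), lay between peaks in 19 (35.2%) and had its summit downstream in 28 (51.9%). Among the 18 with one, the start was covered in 5 (27.8%), lay between peaks in 11 (61.1%) and had its summit downstream in 7 (38.9%). The part of neighbouring starts in the position of the DU-145 summits was not tested. DU-145 and OVCAR-3 differ in tissue, medium and library, which cannot be told apart here.

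The median fold enrichment of the strongest peak was close to that of all marked genes in COLO-205 and DU-145, and the median width was clear of that of all marked genes in SKOV-3 only. The median width was 371 bp for COLO-205 (all marked genes 396 bp), 664 bp for DU-145 (760 bp), 692 bp for OVCAR-3 (642 bp) and 314 bp for SKOV-3 (359 bp). The 95% order-statistic interval of the ribosomal protein median, over genes, held the value of all marked genes in COLO-205 (344 bp to 415 bp), DU-145 (532 bp to 838 bp) and OVCAR-3 (628 bp to 840 bp), and lay below it in SKOV-3 (269 bp to 345 bp). Genes of 1 library are not replicates, so this interval describes the list and is no test. Merging peaks less than 350 bp apart turned the order in DU-145, to 1298 bp against 1146 bp, and taking 14001 peaks in every library turned it in OVCAR-3, to 693 bp against 845 bp. In COLO-205 the gap widened with 14001 peaks in every library, to 382 bp against 576 bp, and with a −log10 q of at least 10, to 377 bp against 504 bp. The median fold enrichment was 4.47 (all marked genes 4.45), 4.58 (4.68), 11.1 (7.41) and 4.37 (5.25) in COLO-205, DU-145 and the ovarian lines OVCAR-3 and SKOV-3. With 14001 peaks in every library it was 4.98 (5.51) in COLO-205, which turned the order there, 5.21 (5.43) in DU-145 and 11.3 (9.57) in OVCAR-3, where the difference became smaller.
In OVCAR-3 the ribosomal protein genes thus stood high among marked genes, with a median fold percentile of 77.4, and in SKOV-3 low, at 25.9. The proteasome genes (72.4) and the translation factor and fusion genes with 5' TOP mRNAs (74.6) stood nearly as high in OVCAR-3, and the mitochondrial ribosomal protein genes at 54.9. In SKOV-3 these groups stood at 44.8, 69.6 and 54.6. In OVCAR-3, 56 of 74 were above the library's median, and in SKOV-3 10 of 50. Of the 46 genes marked in all 4 lines, 30 had their highest fold percentile in OVCAR-3 (65.2%), 10 in DU-145 (21.7%), 6 in COLO-205 (13%) and none in SKOV-3. Of the 5006 genes marked in all 4 lines, these shares were 33.3%, 29.7%, 22.3% and 14.7%. The percentile is taken within a library, since fold enrichment is not scaled between them. The median tag count at the summit was 52 for COLO-205, 67 for DU-145, 122 for OVCAR-3 and 37 for SKOV-3.
Within DU-145 the highest fold enrichments were those of RPS27 (14.1, 12.0 to 16.5), at the 99.6th percentile, and RPS29 (13.5, 11.5 to 15.7), at the 99.5th. Within OVCAR-3 they were those of RPS9 (26.2, the 99.4th percentile), RPS27 (21.7, 18.8 to 24.9, the 98.2nd) and RPS3 (20.9, 18.7 to 23.4, the 97.7th). RPS27 stood at the percentile 84.6 in COLO-205 and 81.7 in SKOV-3. RPS9, RPS27 and RPS3 are small subunit proteins, and RPS3 also acts in DNA repair. The lowest within DU-145 was RPL21 (2.46, 1.90 to 3.14), at the percentile 0.839, and within SKOV-3 RPS16 (2.95, 2.18 to 3.90), at 0.746.

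**Figure D5:**
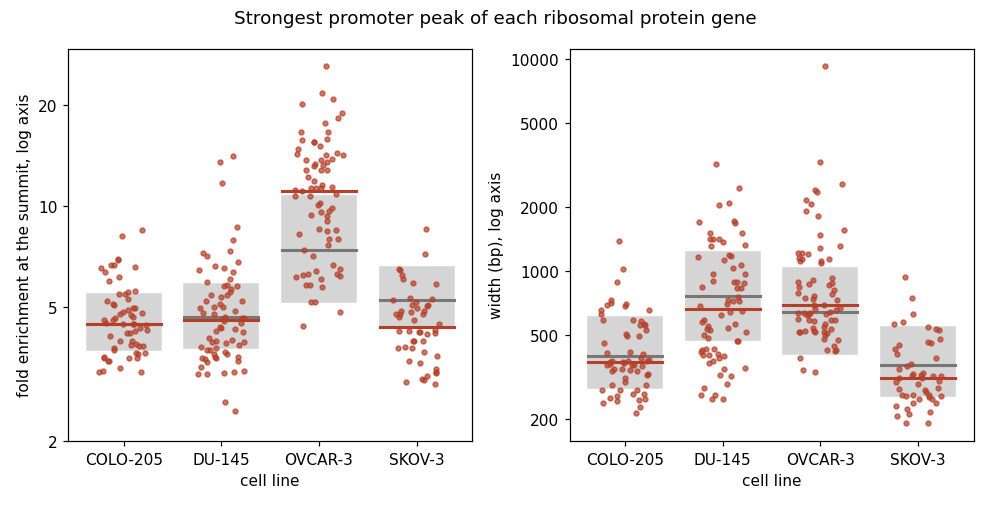
Fold enrichment at the summit (left, log axis) and width in bp (right, log axis) of the strongest promoter peak of each marked ribosomal protein gene (points) in the 4 lines, with their median (red line) and the median and quartiles of all marked autosomal protein-coding genes (grey line and box). The red line stands above the grey one for fold enrichment in OVCAR-3 (11.1 against 7.41) and below it in SKOV-3 (4.37 against 5.25).

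Peaks of at least 2000 bp were rare at these genes. None was found in COLO-205 (all genes 0.369%) or SKOV-3 (all genes 0.0832%). In DU-145 4 genes had one (5.19%, all genes 4.46%), which are RPS29 (3199 bp), RPS16 (2478 bp), RPL7A (2090 bp) and RPL7 (2047 bp). The DU-145 peak of RPS16 has its summit 4590 bp from the reference start and does not reach that start, so its width is not that of the reference promoter. In OVCAR-3 there were 7 (9.09%, all genes 3.17%), which are RPS16 (9245 bp), RPS9 (3258 bp), RPS2 (2569 bp), RPS21 (2408 bp), RPLP2 (2351 bp), RPL7A (2169 bp) and RPS29 (2077 bp). Merging neighbours raised both counts to 18, against 11.1% of all genes in DU-145 and 7.38% in OVCAR-3.
Among genes marked in all 4 lines, the widest by median width percentile were RPL7A (94.8), RPS29 (94.5), RPLP2 (85.0), RPL8 (81.8) and RPL35 (80.2). RPL7A, which hosts 4 small nucleolar RNAs and starts 87 bp from MED22, had widths of 1386 bp, 2090 bp, 2169 bp and 459 bp. Outside DU-145 the strongest peak of RPS29 lay about an upstream alternative start, with summits at -12387 bp, -12445 bp and -12457 bp from the reference start and near the start of LRR1, so those widths are not of the reference promoter.
The narrowest were RPS20 (17.5), RPS9 (17.8), RPS27A (21.2), RPS27L (25.6) and RPS13 (29.6). RPS20, a small subunit protein, had widths of 253 bp, 403 bp, 596 bp and 216 bp, at width percentiles of 17.3, 17.7, 45.9 and 11.0, and its fold percentiles were 59.7, 83.9, 93.6 and 70.1 in the same order. Narrow peaks of low fold enrichment were also found, as at RPSA in COLO-205, with a width percentile of 1.42 and a fold percentile of 22.5.
The largest gaps between lines in width percentile included those at RPL23A (2.44 in SKOV-3 to 94.3 in OVCAR-3), RPS9 (13.6 to 98.7), RPS2 (27.7 to 97.4) and RPS27 (21.6 to 88.2). RPL23A, a protein near the exit tunnel of the large subunit, had widths of 371 bp, 641 bp, 1924 bp and 193 bp, and its narrow SKOV-3 peak had a fold percentile of 11.8.

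Some of these values lie in stretches that are dense with peaks. RPS9 and RPS16 on chromosome 19 lie in 1-Mb windows of which OVCAR-3 peaks cover 73.5% and 72.6%, and their widths in COLO-205, where the same windows are covered to 1.27% and 5.06%, were 243 bp and 339 bp. The pileup at the OVCAR-3 summits of both genes could not be recovered, so these values have no counting interval. RPL22 and RPS3 lie in windows covered to 33.8% and 39.4% in OVCAR-3, and RPS29 in a window covered to 43.5% in DU-145. RPS27 lies in a window covered to 15.1% in DU-145. The part of the dense windows in these values was not tested.
RPL21 on chromosome 13 had a fold enrichment of 6.38 in COLO-205 (5.32 to 7.58), at the percentile 86.8 and with 8.10% of its window covered, and of 5.83 in OVCAR-3 (4.83 to 6.97), at the percentile 33.3. It was unmarked in SKOV-3. The 8 genes on chromosome 3, RPL14, RPL15, RPL24, RPL29, RPL32, RPL35A, RPL39L and RPSA, had OVCAR-3 fold enrichments from 8.41 (RPL29) to 15.5 (RPSA), in windows covered to at most 4.07%. Without the genes on these chromosomes or in windows covered to over 20%, 62 of 65 ribosomal protein genes were marked in OVCAR-3 (95.4%, all genes left 60.2%), and 39 of 62 in all 4 lines (62.9%, all genes left 25.6%). The OVCAR-3 median fold enrichment was then 10.4 (all genes left 7.24) and 5 peaks reached 2000 bp (7.69%, all genes left 2.57%).

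The 4 paralogs with a final L stood apart from each other. RPL3L, the form of striated muscle, and RPL10L, an intronless form of testis, were marked in no line. The nearest peak to RPL3L was between 1262 bp (OVCAR-3) and 7579 bp (SKOV-3) away, and to RPL10L between 58188 bp (COLO-205) and 1397742 bp (SKOV-3). RPL39L, a form of male germ cells, was marked in all 4 lines, with widths of 889 bp, 1330 bp, 1157 bp and 295 bp and fold enrichments of 3.83, 5.56, 10.7 and 4.17. RPS27L, a target of p53, was also marked in all 4 lines, and its summit was upstream of the start in each (-308 bp, -293 bp, -229 bp and -192 bp). Its fold enrichment of 5.84 in OVCAR-3 was at the 33.3rd percentile, whereas that of RPS27 was at the 98.2nd.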

How the data were processed

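H3K27ac ChIP-seq was performed on 4 cancer cell lines, with 1 library per line. Per the labels and methods, the authors aligned reads with Bowtie2 2.1.0 to hg19 and called narrow peaks per library with MACS2 2.1.0.20150603 at a q-value below 0.001. For each peak the deposited lists give a −log10 p, a −log10 q, a score (the −log10 q times 10, made whole) and the fold enrichment, a ratio of the summit to its local background. These values are comparable within a library only. The methods describe a merging of neighbours closer than 350 bp, but the deposited lists hold closer neighbours, so they were used as deposited and merging was an alternative.

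Genes, starts and biotypes were taken from GENCODE 44 lifted to GRCh37, and sequences from GRCh37. The reference start was that of the MANE Select transcript. The strongest promoter peak was the one with the highest −log10 q. Tag counts at the summit were recovered as the whole number whose Poisson p matched the deposited −log10 p within 0.001, which succeeded for at least 99.92% of peaks, and fold intervals are exact Poisson 95% intervals of that count over the recovered background. In simulated lists all pileups and all 200 planted promoter peaks per line were recovered. With 1 library per line no test was made. The members, comparison lists and settings were chosen with earlier results of these data known.

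Genes named are those unmarked in at least 1 line, the 5 widest, 5 narrowest and 5 most variable by width percentile among genes marked in all lines, the Diamond-Blackfan anaemia and cancer genes, the paralogs with a final L, the stalk proteins with RPSA, RPS6 and RPS27A, and those on chromosomes or 1-Mb windows dense with peaks. Genes with the highest or lowest fold enrichment, with a peak of at least 2000 bp, with overlapping motif matches, or shown as examples of summit position or narrow peaks were chosen after their values were seen. Some genes and sequences that meet these rules are counted but not reported by name here. Alternatives were other peak thresholds, windows, starts, widths and gene lists. Python 3.11.15, numpy 2.4.6, pandas 2.3.3, scipy 1.17.1, pysam 0.24.0 and matplotlib 3.10.9 were used.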

Additional observations from a re-analysis of the deposited data

How the results depend on the processing

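Of 209 values of 29 results under the alternatives, 30 moved. The other 179 stayed within 1.5 times the reported count or inside the interval of the reported median. Only the summit distances can take either sign, and none of them changed it. Some values could not move, such as those of SKOV-3 with equal numbers of peaks, because its list sets that number. The order against all genes was not part of this rule. With equal numbers of peaks the OVCAR-3 median width stayed (692 bp to 693 bp) while its order turned (all genes 642 bp to 845 bp). The fold enrichments and wide peaks without dense chromosomes and windows were added after seeing the data. No paired analysis was possible because each line has a single library. With equal numbers of peaks per library, marked genes numbered 39 in COLO-205 (50.6%, all genes 22.7%) and 47 in DU-145 (61%, 39.6%), and 27 in all 4 lines (35.1%, 13%). The median fold enrichment then was 4.98 in COLO-205 (all genes 5.51, so the order turned) and 5.21 in DU-145 (5.43), the median width in DU-145 880 bp (993 bp), and starts between 2 peaks numbered 6 in COLO-205 (15.4%, all genes 8.11%), 7 in DU-145 (15.6%, 5.71%) and 5 in OVCAR-3 (7.04%, 4.7%), where the share had been below that of all genes. This alternative removes the weakest peaks of the larger lists. With a −log10 q of at least 10, marked genes numbered 29 in SKOV-3 (37.7%, all genes 22.9%) and 26 in all 4 lines (33.8%, 15.9%), the SKOV-3 median fold enrichment was 4.99 (5.89), and starts between 2 peaks numbered 13 in COLO-205 (23.6%, all genes 11.3%) and 3 in SKOV-3 (10.3%, 10.3%). Merging joins peaks across the start by construction. It gave median widths of 1298 bp in DU-145 (all genes 1146 bp) and 1224 bp in OVCAR-3 (939 bp), 18 peaks of at least 2000 bp in each of these lines (23.4%, all genes 11.1% and 7.38%), starts between peaks in 8, 8, 1 and 2 genes of COLO-205 (12.9%, all genes 8.24%), DU-145 (11.1%, 5.26%), OVCAR-3 (1.35%, 4.3%) and SKOV-3 (4.08%, 5.96%, below all genes here only), and covered starts in 19 genes of COLO-205 (30.6%, 35.8%), 44 of DU-145 (61.1%, 72%) and 9 of SKOV-3 (18.4%, 32.8%). A width of at least 1000 bp was reached by 2 genes in COLO-205 (2.6%, all genes 4.08%), 21 in DU-145 (27.3%, 21.7%) and 22 in OVCAR-3 (28.6%, 16.4%), and of at least 3000 bp by 1 in DU-145 (1.3%, 1%) and 2 in OVCAR-3 (2.6%, 1.02%). The SKOV-3 list is the shortest, with a median of 37 tags at these summits, so an unmarked gene there means only that no peak was called in this library. The part of sequencing depth in the missing peaks was not tested.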

Other observations

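Ribosomal protein pseudogenes, which are intronless copies of the transcripts, are far more numerous than the genes themselves. Of 1514 annotated, a peak lay within 1 kb of the start of 105 for COLO-205 (6.94%), 109 for DU-145 (7.2%), 98 for OVCAR-3 (6.47%) and 12 for SKOV-3 (0.793%). Of the 1093 that lie over 10 kb from a protein-coding start, 59, 59, 62 and 3 had one in the same order (5.4%, 5.4%, 5.67% and 0.274%). Of 6096 processed pseudogenes of other genes at that distance, 9.69%, 3.84%, 4.17% and 0.607% had one. The ribosomal protein pseudogenes lay below them in COLO-205 and above them in DU-145 and OVCAR-3. In SKOV-3 they lay below, with only 3 marked. Of all 7810 processed pseudogenes of other genes, 9.72%, 5.13%, 5.1% and 0.717% had one, so the order in SKOV-3 turned without the distance limit. These differences were not tested. FAU, which encodes a ribosomal protein fused to a ubiquitin-like protein and lies outside the symbol rule, had peaks of 244 bp, 723 bp and 691 bp in COLO-205, DU-145 and OVCAR-3 and none in SKOV-3. The elongation factor gene EEF1A1 had peaks in all 4 lines, with fold enrichments of 5.26, 4.27, 14.7 and 7.86.

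Small nucleolar RNAs, which guide the modification of ribosomal RNA, lay in 27 of the 77 genes (35.1%, 58 RNAs), against 2.07% of all autosomal protein-coding genes. The mitochondrial ribosomal protein genes held none. The start of a gene was covered by a DU-145 peak in 56.9% of marked mitochondrial ribosomal protein genes, 69.4% of proteasome genes and 64.7% of the translation factor and fusion genes, against 30.6% of the cytosolic ribosomal protein genes. In OVCAR-3 these shares were 64.9%, 74.3% and 77.8%, against 73.0%, so the order of DU-145 was not seen there. Across genes marked in 2 lines, Spearman's rho of the peak widths was between 0.258 (COLO-205 and DU-145, n = 61) and 0.537 (COLO-205 and SKOV-3, n = 47) for the ribosomal protein genes. Over all genes it was between 0.297 (DU-145 and SKOV-3) and 0.457 (DU-145 and OVCAR-3), and the ribosomal protein genes lay above the value of all genes in 4 of 6 pairs. For fold enrichment rho was between 0.179 (DU-145 and SKOV-3, all genes 0.355) and 0.472 (COLO-205 and SKOV-3, all genes 0.391), and the ribosomal protein genes lay above all genes in 2 of 6 pairs. Genes are not independent replicates and each pair of lines shares its gene set, so these are descriptions.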
